A study of Mus musculus with 13 samples.

Results

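The 5 subunits of the NF-kappaB transcription factor (Nfkb1, Nfkb2, Rel, Rela and Relb) and 5 of the proteins that restrain or modulate it (Nfkbia, Nfkbid, Nfkbie, Nfkbiz and Tnfaip3, grouped as inhibitors) were followed in microglia, the resident macrophages of the brain. They were chosen by gene symbol and are 10 of the 19737 genes in the deposited table. All 10 were expressed at a mean of at least 1 FPKM (fragment counts divided by gene length and by library depth) over the 13 libraries, and so were among the 10817 genes tested. RNA depleted of ribosomal RNA had been sequenced from wild type mice given the AAV PHP.eB capsid with EGFP (n = 3), from 5xFAD mice given the same EGFP vector (n = 2), from 5xFAD mice given AAV PHP.eB with circPOLR2A (n = 4) and from 5xFAD mice with PKR knockout (n = 4). AAV PHP.eB is an adeno-associated virus capsid selected to reach the brain from the blood, 5xFAD mice model Alzheimer's disease through mutant human transgenes driven in neurons, circPOLR2A is a circular RNA with double-stranded regions, and PKR, encoded by Eif2ak2, senses double-stranded RNA as a kinase. The series title names delivery of such circular RNA to neurons, with microglia as the readout, so the 3 main questions are how 5xFAD microglia differ from wild type, whether circular RNA alters them, and where a loss of PKR stands beside it.

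Several features of the groups limit the comparisons. Within the circRNA group the treatment labels are not the same, naming circPOLR2A(9,10), circPOLR2A(9,11), circPOLR2A(9,12) and circPOLR2A(9,13) for replicates 1, 2, 3 and 4, whereas the series design gives circPOLR2A(9,10) for the whole group; they were treated as 1 group by their titles. No vector is named for the PKR knockout mice, and library names are given for that group only, so a difference in vector or in library preparation cannot be told apart from the knockout. Age, sex and whether each library came from 1 animal are not stated in the labels, so p-values measure the spread between these libraries. The 10 microglial markers summed to between 3106 and 5917 FPKM and none was at 0 in any group, while oligodendrocyte markers also reached 225 to 1580 FPKM in sum. All 4 knockout libraries were deeper (57.7 to 69.9 M, or mega, fragments) than the 9 others (45.1 to 54.9 M), and the part of depth was not tested. Wild type replicate 3 stood apart, with the highest mean level of markers of other brain cells (4.10 on the log2(FPKM + 1) scale, against 2.53 to 3.29 in the other 12 libraries) and the lowest wild type value for 9 of the 10 genes. Eif2ak2 was measured at 3.35, 4.61, 3.31 and 4.16 FPKM in the knockout libraries, at 6.49 and 6.59 in 5xFAD with EGFP, at 7.37, 7.48, 7.73 and 8.11 with the circRNA and at 5.18, 5.23 and 4.14 in wild type. The knockout libraries were below every other 5xFAD library but overlapped the wild type range, and which part of the gene was deleted is not given in the sources used here.

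NF-kappaB is a dimer of Rel-family proteins. In resting cells IkB proteins, of which IkBalpha (Nfkbia) is the best known, hold the dimers in the cytoplasm. Signals from Toll-like, interleukin and TNF receptors activate the IKK kinases, IkBalpha is degraded, and the dimers enter the nucleus, where they transcribe cytokine and chemokine genes and also the genes of their own inhibitors. Nfkbia, Nfkbie and Tnfaip3 are therefore both brakes and targets of the pathway, and their mRNA is widely read as a record of recent pathway activity; in microglia the pathway is part of the response to microbial products, injury and amyloid.

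Promoter windows from RefSeq (build GRCm38.p6, 250 bases before to 50 bases after an annotated start) were found for 7 of the 10 genes, in 12 windows. Of these windows 6 are shown, because their genes include inhibitors called different between groups and subunits not called in the main fit. The windows were searched on both strands for the kappaB consensus, the 10-base motif bound by Rel dimers, and capitals mark each match, adjoining matches running together. The sequences are of the coding strand, 5′ to 3′. The Nfkbia window is at chr12:55492598-55492897 on the minus strand, that of Tnfaip3 at chr10:19015361-19015660 on the minus strand, that of Nfkbie at chr17:45555450-45555749 on the plus strand, that of Nfkbid at chr7:30422156-30422455 on the plus strand, that of Rel at chr11:23770920-23771219 on the minus strand and that of Rela at chr19:5637291-5637590 on the plus strand. Nfkbid has 2 other windows and Tnfaip3 has 1 other, all without a match, so for these genes the window shown is the one that holds matches.
Nfkbia: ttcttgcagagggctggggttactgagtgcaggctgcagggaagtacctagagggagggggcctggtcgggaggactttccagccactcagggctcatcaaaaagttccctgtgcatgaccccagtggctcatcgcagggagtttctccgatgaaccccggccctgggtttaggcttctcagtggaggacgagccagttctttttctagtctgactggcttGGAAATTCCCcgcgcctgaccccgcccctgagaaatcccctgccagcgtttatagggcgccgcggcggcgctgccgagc
Tnfaip3: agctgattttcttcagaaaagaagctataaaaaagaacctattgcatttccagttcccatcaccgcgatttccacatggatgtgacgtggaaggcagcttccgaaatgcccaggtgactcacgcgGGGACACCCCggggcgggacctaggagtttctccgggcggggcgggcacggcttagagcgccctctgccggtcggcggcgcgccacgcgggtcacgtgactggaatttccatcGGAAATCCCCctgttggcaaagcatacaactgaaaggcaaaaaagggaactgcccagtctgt
Nfkbie: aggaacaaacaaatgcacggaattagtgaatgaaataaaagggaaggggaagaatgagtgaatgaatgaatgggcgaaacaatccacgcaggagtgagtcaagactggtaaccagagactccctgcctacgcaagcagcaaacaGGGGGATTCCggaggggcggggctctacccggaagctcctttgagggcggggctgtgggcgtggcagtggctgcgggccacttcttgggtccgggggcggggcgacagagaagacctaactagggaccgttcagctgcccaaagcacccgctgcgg
Nfkbid: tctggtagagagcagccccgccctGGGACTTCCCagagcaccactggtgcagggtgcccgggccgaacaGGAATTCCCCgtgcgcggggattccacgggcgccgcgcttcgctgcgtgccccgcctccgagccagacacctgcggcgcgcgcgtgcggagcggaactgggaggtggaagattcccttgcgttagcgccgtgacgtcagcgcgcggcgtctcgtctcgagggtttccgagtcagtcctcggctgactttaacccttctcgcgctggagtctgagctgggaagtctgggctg
Rel: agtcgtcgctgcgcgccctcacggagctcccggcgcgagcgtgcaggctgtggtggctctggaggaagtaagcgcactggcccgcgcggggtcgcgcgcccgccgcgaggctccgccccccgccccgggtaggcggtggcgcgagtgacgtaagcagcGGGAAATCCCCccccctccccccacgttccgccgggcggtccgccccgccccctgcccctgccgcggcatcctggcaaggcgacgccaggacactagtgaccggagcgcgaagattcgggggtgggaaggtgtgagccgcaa
Rela: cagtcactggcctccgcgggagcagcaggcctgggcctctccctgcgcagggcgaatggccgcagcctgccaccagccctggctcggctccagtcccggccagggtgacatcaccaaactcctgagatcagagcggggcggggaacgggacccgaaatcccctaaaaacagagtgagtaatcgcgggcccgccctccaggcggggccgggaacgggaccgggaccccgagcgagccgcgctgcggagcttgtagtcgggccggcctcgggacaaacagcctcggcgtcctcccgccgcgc
The consensus was present in 8 of the 12 windows and in at least 1 window of 6 of the 7 genes (Nfkb2, Rel, Nfkbia, Nfkbid, Nfkbie and Tnfaip3). Of the 3 Nfkb2 windows 2 overlap and share 1 match, GGGACTTTCC, so that site is counted in both. Across all RefSeq promoter windows of this length, 8.46% held a match, and 10.3% of the windows of the genes tested did. The Nfkbia match is GGAAATTCCC, 222 bases into its window. Tnfaip3 held GGGACACCCC and GGAAATCCCC. Matches occurred both in genes whose RNA was called different between groups and in Rel, whose RNA was not called in any comparison of the main fit. A match is a description of the letters and not of binding.

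The subunits come first. Rela encodes p65, the main transactivating subunit, and lies at chr19:5637483-5648130 on the plus strand (GRCm38). It was the most abundant subunit, at 24.3, 23.7 and 18.2 FPKM in wild type, 23.4 and 22.1 in 5xFAD with EGFP, 23.2, 25.3, 27.4 and 21.1 with the circRNA, and 26.6, 26.9, 24.1 and 25.2 in the PKR knockout. The groups overlapped except that the knockout libraries all lay above the 2 of 5xFAD with EGFP. Nfkb1, which encodes p105 and its processed product p50 (chr3:135584655-135691547, minus strand), was at 11.1, 10.9 and 8.82 FPKM in wild type, 10.8 and 10.5 in 5xFAD with EGFP, 10.6, 11.7, 11.9 and 11.2 with the circRNA, and 11.6, 12.0, 12.0 and 11.9 in the knockout. Its highest and lowest libraries differed by 1.36-fold, the narrowest range of the 10 genes.

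Rel encodes c-Rel, a subunit best known in lymphoid and myeloid cells (chr11:23736847-23770970, minus strand). Its values were 8.91, 7.88 and 4.98 FPKM in wild type, 6.93 and 7.13 in 5xFAD with EGFP, 7.11, 7.08, 6.01 and 6.13 with the circRNA, and 6.75, 7.36, 7.10 and 7.61 in the knockout. The wild type libraries spanned the values of every other group. Nfkb2 and Relb form the non-canonical arm, in which p100 is processed to p52 and pairs with RelB. Nfkb2 (chr19:46304320-46312385, plus strand) was at 4.42, 4.65 and 4.16 FPKM in wild type, 5.92 and 5.62 in 5xFAD with EGFP, 5.56, 6.61, 7.31 and 5.70 with the circRNA, and 7.41, 8.49, 7.05 and 7.14 in the knockout. Every 5xFAD library was above every wild type library. Exons of 2 genes on the opposite strand, Psd and AC114539.1, cover 299 and 531 bases of the Nfkb2 exons; how the counting treated strand is not given in the sources used here, and Psd was itself at 1.94 to 9.38 FPKM. Relb (chr7:19606217-19629438, minus strand) had the lowest level of the 10 genes, at 2.93, 3.70 and 3.17 FPKM in wild type, 4.37 and 4.59 in 5xFAD with EGFP, 4.37, 4.39, 5.90 and 4.65 with the circRNA, and 4.41, 6.29, 4.04 and 5.17 in the knockout. Its 3 groups of 5xFAD libraries overlapped one another and not the wild type.

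Among the inhibitors, all but Nfkbie spanned 3.38-fold or more from their lowest to their highest library, and the subunits 2.15-fold or less. Nfkbia, encoding IkBalpha (chr12:55489410-55492647, minus strand), was the most abundant of the 10 genes and ranked 148 of the 10817 by mean FPKM. Its values were 72.8, 56.4 and 43.7 FPKM in wild type, 86.1 and 81.2 in 5xFAD with EGFP, 80.1, 81.0, 77.8 and 60.3 with the circRNA, and 176, 168, 126 and 159 in the PKR knockout. All 4 knockout libraries were above all 9 others, and circRNA replicate 4 was the lowest of its group. Nfkbie encodes IkBepsilon, another cytoplasmic IkB induced by Rel dimers (chr17:45555703-45563169, plus strand). It was at 9.35, 10.2 and 7.03 FPKM in wild type, 9.28 and 8.76 in 5xFAD with EGFP, 7.60, 7.76, 7.76 and 7.46 with the circRNA, and 13.0, 14.3, 10.2 and 12.2 in the knockout. The circRNA libraries lay within the wild type range, and the lowest knockout library was just above the highest wild type one.

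Nfkbid and Nfkbiz encode the nuclear IkB proteins IkBNS and IkBzeta, which act on chromatin-bound dimers, IkBzeta being required for a set of secondary inflammatory genes. Nfkbid (chr7:30421732-30428746, plus strand) was at 14.0, 10.6 and 6.69 FPKM in wild type, 11.5 and 12.0 in 5xFAD with EGFP, 10.2, 10.5, 8.64 and 7.98 with the circRNA, and 21.4, 22.6, 18.1 and 20.6 in the knockout. Outside the knockout, the other 3 groups shared 1 range set by the wild type. Nfkbiz (chr16:55811375-55838899, minus strand) was at 15.9, 15.4 and 10.6 FPKM in wild type, 32.0 and 37.4 in 5xFAD with EGFP, 31.7, 30.7, 27.1 and 23.3 with the circRNA, and 62.7, 70.1, 51.7 and 71.1 in the knockout. Tnfaip3 encodes A20, a ubiquitin-editing enzyme that shuts off signalling upstream of IKK (chr10:19000910-19015657, minus strand). It was at 15.4, 14.3 and 8.85 FPKM in wild type, 28.0 and 29.0 in 5xFAD with EGFP, 26.7, 26.1, 22.2 and 19.9 with the circRNA, and 60.7, 58.8, 48.3 and 63.6 in the knockout. For both Nfkbiz and Tnfaip3 the 4 groups did not overlap, in the order wild type, circRNA, 5xFAD with EGFP and knockout. The margin was narrow for Nfkbiz, whose highest circRNA library (31.7) was just below its lowest 5xFAD EGFP library (32.0). The share of all genes with this arrangement was not counted. Tnfaip3 had the widest range of the 10 genes, 7.19-fold from its lowest to its highest library, followed by Nfkbiz at 6.73-fold.

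**Figure D1:**
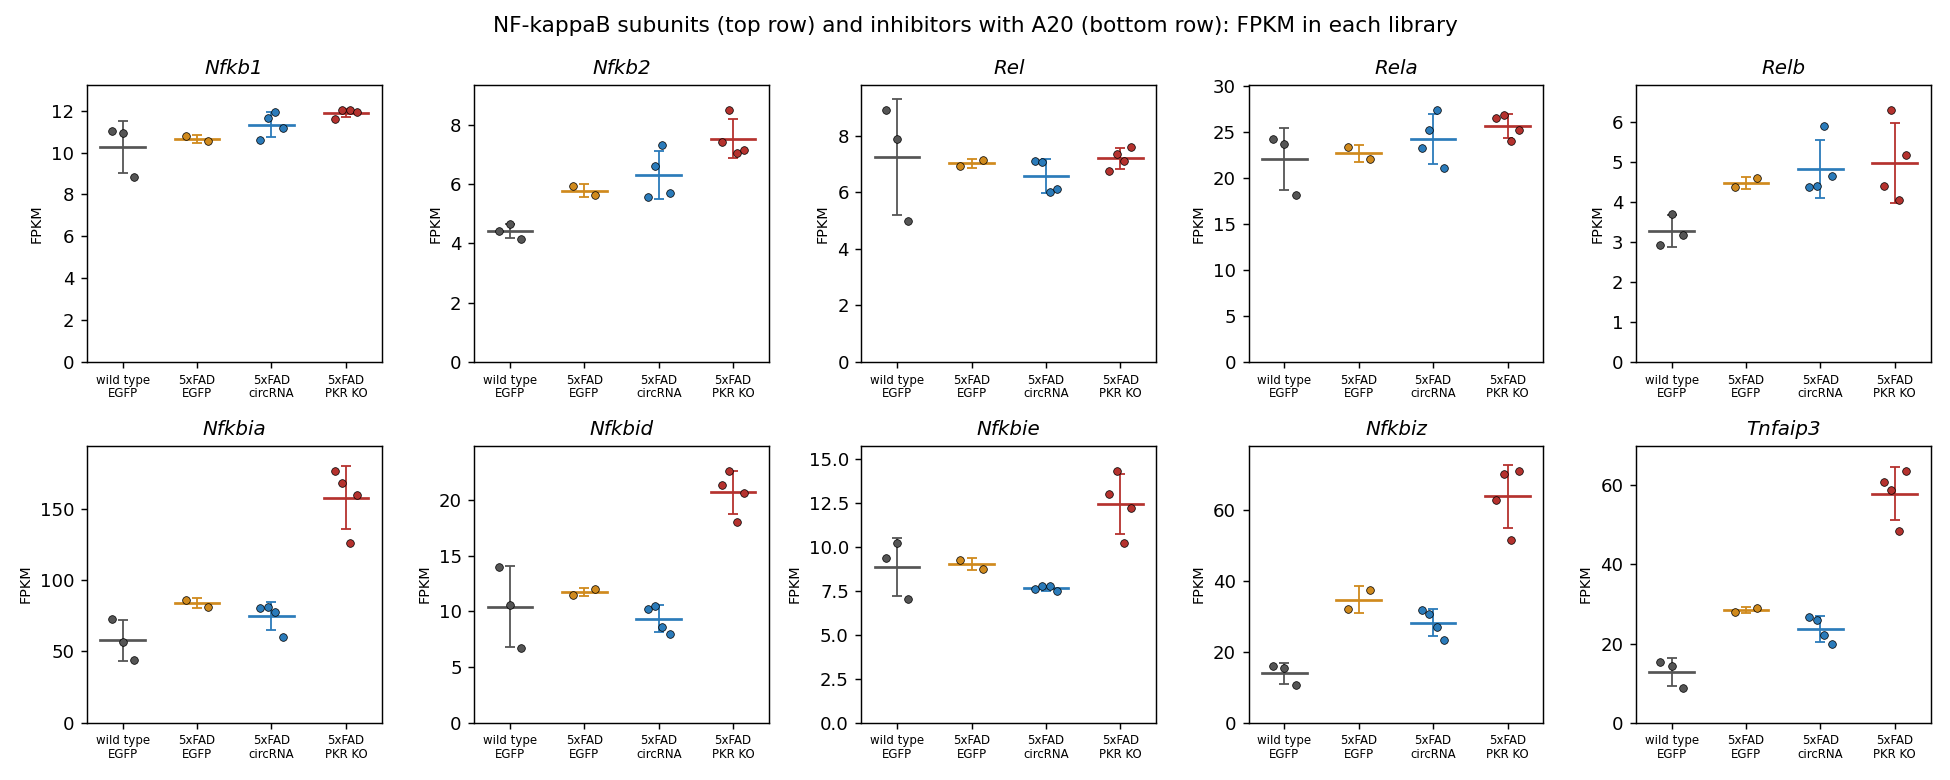
FPKM of each of the 10 genes (vertical axes, linear and starting at 0) in each library (points), by group, with the group mean as a line and the SD as a bar. The upper row holds the subunits, of which Nfkb2 and Relb are higher in every 5xFAD library than in wild type, and the lower row the inhibitors and A20, in which the 4 PKR knockout libraries lie above all others for each gene. For Nfkbie the margin is narrow, 10.235 FPKM in knockout replicate 3 against 10.202 in wild type replicate 2. The share of all genes with either arrangement was not counted.

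The group means summarise these values. Nfkbiz averaged 14.0 ± 2.95 FPKM in wild type (SD, n = 3), 34.7 ± 3.83 in 5xFAD with EGFP (SD, n = 2), 28.2 ± 3.79 with the circRNA (SD, n = 4) and 63.9 ± 8.96 in the knockout (SD, n = 4). Tnfaip3 averaged 12.9 ± 3.51, 28.5 ± 0.675, 23.7 ± 3.23 and 57.9 ± 6.66 FPKM in the same order of groups, and Nfkbia 57.6 ± 14.6, 83.6 ± 3.51, 74.8 ± 9.78 and 158 ± 22.0 FPKM. In that order of levels, wild type and circRNA were called different for Nfkbiz and Tnfaip3, while circRNA against 5xFAD with EGFP, and 5xFAD with EGFP against the knockout, were not. For Nfkbia no neighbouring groups were called different. Rela, by contrast, averaged 22.1 ± 3.36, 22.7 ± 0.933, 24.3 ± 2.71 and 25.7 ± 1.29 FPKM, with no neighbouring groups called different. Between 536 and 29683 fragments lay behind each of the 130 values, giving counting errors of 0.58% to 4.32%, which cover counting only.

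In 5xFAD microglia with EGFP against wild type, 2 of the 10 genes rose, Nfkbiz and Tnfaip3. Nfkbiz rose 2.48-fold in mean FPKM (log2 change 1.27, SE 0.189, adjusted p = 0.000972 in limma with Benjamini-Hochberg adjustment) and Tnfaip3 rose 2.22-fold (1.12, SE 0.200, adjusted p = 0.00305). Log2 changes here and below are of log2(FPKM + 1), which understates changes of low genes. Of all genes tested, 7.65% were called higher. In 5 genes (Nfkb2, Relb, Nfkbia, Nfkbiz and Tnfaip3) both 5xFAD libraries exceeded all 3 wild type libraries, against 16.5% of all genes. Nfkb2 (0.32, adjusted p = 0.0649), Relb (0.36, adjusted p = 0.140) and Nfkbia (0.56, adjusted p = 0.0992) did not pass the threshold. The Tnfaip3 call was lost when the 2 groups were fitted alone (adjusted p = 0.062), Nfkbia passed without wild type replicate 1 (adjusted p = 0.0365), and Nfkb2 passed without circRNA replicate 3 (adjusted p = 0.0355) and under median-ratio scaling and quantile normalization. Over the alternatives the log2 change ranged from 0.18 to 0.38 for Nfkb2, from 0.23 to 0.45 for Relb and from 0.33 to 0.74 for Nfkbia.

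A list of genes that NF-kappaB is known to transcribe was read in the same comparison. It was chosen with earlier results of these data known, so its counts are a description only. Of 32 listed targets 25 were tested, and 15 rose, 1 fell and 9 were not called. Their median log2 change was 1.05 against -0.03 for all genes. Csf1, a growth factor for microglia, had the largest change among them (3.44, adjusted p = 4.00e-08), rising from 5.51 ± 0.674 FPKM (SD, n = 3) to 69.5 ± 4.20 (SD, n = 2). The chemokine genes Ccl3 (2.35) and Ccl4 (2.07) and the urokinase receptor gene Plaur (1.78) followed. Vcam1, an adhesion molecule of vessels and macrophages and the 1 target that fell (-0.86), is named after its value was seen, and its call was lost without wild type replicate 1 or 5xFAD EGFP replicate 2. None of the 10 IKK and activating kinases, 17 adaptors and ubiquitin ligases, 10 ubiquitin-editing brakes or 2 other IkB genes tested was called by limma, and 3 of these genes were higher and 4 lower at an unadjusted p under 0.05, beside 12.4% and 13.8% of all genes. Of 15 immediate-early and stress genes, which respond within minutes to many stimuli and to tissue handling, 5 rose and none fell, led by Atf3 (1.58), Dusp1 (1.00), Egr1 (0.97) and Zfp36 (0.85). That count fell to 1 without wild type replicate 2, 5xFAD EGFP replicate 1 or 5xFAD EGFP replicate 2, to 2 without wild type replicate 3 and to 3 without circRNA replicate 1 or 2 or knockout replicate 2 or 4. Beside these changes, markers of border macrophages (6 of 6 tested), mural cells (4 of 4) and endothelial cells (4 of 6) fell. Of all genes tested, 6.35% were called lower. Of the 6 astrocyte markers Gfap rose (1.72), named after its value was seen, and the other 5 were at -0.69 to -0.04 without passing, with a median of -0.40 for the list. Border macrophage markers summed to 41.9 to 66.3 FPKM in wild type and 20.04 to 28.6 in 5xFAD with EGFP, mural markers to 49.2 to 108 and 17.9 to 31.3, and endothelial markers to 49.7 to 116 and 24.0 to 33.0, with no marker of these 3 lists at 0. With a covariate of neuron, astrocyte, oligodendrocyte, endothelial and mural markers, Nfkbiz (1.16, adjusted p = 0.000146) and Tnfaip3 (1.00, adjusted p = 0.000523) were still called. That covariate is a single mean over lists with medians of both signs. Mural (-1.48), endothelial (-1.39) and astrocyte (-0.40) markers are averaged in it with oligodendrocyte (0.69) and neuron (0.52) ones. The mural and endothelial falls alone were therefore not adjusted for. The part of the border macrophage markers, which that covariate does not hold, was not tested, and in bulk RNA fewer cells of a type and less RNA per cell cannot be told apart.

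The circular RNA was then compared with EGFP in 5xFAD microglia. None of the 10 genes was called, nor was any of the 10817 genes (0% higher), although 491 genes were higher and 32 lower at an unadjusted p under 0.05 in limma, none of them among the 10. For each of the 5 inhibitors, however, all 4 circRNA libraries were below both EGFP libraries, an arrangement that 2.65% of all genes showed. Nfkbid had the largest change (-0.31, 95% confidence interval -0.75 to 0.13), followed by Nfkbiz (-0.29, -0.69 to 0.10), Tnfaip3 (-0.26, -0.68 to 0.15), Nfkbie (-0.21, -0.50 to 0.08) and Nfkbia (-0.17, -0.59 to 0.26), with adjusted p-values of 0.739 to 0.787. The intervals include 0 as well as falls of 0.50 to 0.75 log2 units. The Nfkbia value was -0.07 without circRNA replicate 4, its lowest library in that group, and -0.01 with the replicate block, and the Nfkbiz value was -0.19 without 5xFAD EGFP replicate 2 and -0.40 without 5xFAD EGFP replicate 1. None of the 25 targets was called (median -0.06 against 0.08 for all genes) or had an unadjusted p under 0.05 in limma. None of the 15 immediate-early genes was called either, although their median was -0.50 and 4 were lower at an unadjusted p under 0.05. The summed immediate-early level was 1351 to 1453 FPKM with EGFP and 869 to 1284 with the circRNA, and no gene of that list was at 0; its part in the arrangement of the inhibitors was not tested. No cell type marker was called. All 4 neuron markers (median -0.65) and all 6 oligodendrocyte markers (median -0.53) had values below those with EGFP, and all 6 endothelial (median 0.50) and all 4 mural markers (median 0.45) had values above, beside a median of -0.26 for the 5 inhibitors. Neuron markers summed to 19.0 to 22.2 FPKM with EGFP and 5.82 to 18.9 with the circRNA, and none was at 0 in all libraries of a group. With the covariate of other brain cell markers the changes of the 5 inhibitors were -0.33 to -0.18, with adjusted p-values of 0.473 to 0.636. That covariate is a single mean over lists that moved in opposite directions here. It was 3.25 and 2.98 with EGFP and 2.57 to 3.29 with the circRNA, so the shifts of single lists were not adjusted for.

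Loss of PKR was compared with the same 2 EGFP libraries, so both comparisons share their controls. None of the 10 genes passed the threshold, while 9 genes of the 10817 did, all higher (0.0832%). The mean values of the inhibitors were above those with EGFP, without passing. Tnfaip3 was 2.03-fold as high in mean FPKM (log2 change 0.99, adjusted p = 0.0817), Nfkbia 1.88-fold (0.89, adjusted p = 0.116), Nfkbiz 1.84-fold (0.86, adjusted p = 0.116), Nfkbid 1.76-fold (0.76, adjusted p = 0.194) and Nfkbie 1.38-fold (0.42, adjusted p = 0.230). Nfkb2 was 1.30-fold as high (0.33, adjusted p = 0.216), and the log2 changes of Rela, Nfkb1 and Relb were 0.17, 0.14 and 0.11. That of Relb ranged from 0.012 to 0.189 when 1 library was left out. Of the 10 genes, 6 had an unadjusted p under 0.05 (the 5 inhibitors and Nfkb2), against 7.41% of all genes, and 8 had all knockout libraries above both EGFP libraries, against 17.7%. The calls depended on the libraries in the fit. Without wild type replicate 3, Nfkbia, Nfkbid, Nfkbiz and Tnfaip3 passed (adjusted p = 0.0181 to 0.0358), as they did when the 2 groups were fitted alone (adjusted p = 0.00446 to 0.0146). Without 5xFAD EGFP replicate 2, which leaves 1 EGFP library assumed to vary like the other groups, the log2 changes of these 4 were 0.79 to 1.01 and their adjusted p 0.620 to 0.794. Oligodendrocyte markers summed to 636 to 680 FPKM with EGFP and 225 to 375 in the knockout, and neuron markers to 19.0 to 22.2 and 7.98 to 13.8, with none at 0 in all libraries of a group. All 6 oligodendrocyte (median -1.40) and all 4 tested neuron markers (median -0.66) had values below those with EGFP, without passing. Immediate-early genes summed to 1351 to 1453 and 1661 to 2088 FPKM, and their part was not tested. With the covariate of other brain cell markers, which holds no immediate-early gene, Tnfaip3 passed (0.83, adjusted p = 0.0467) and the other 4 inhibitors did not (0.32 to 0.78, adjusted p = 0.053 to 0.191). Among the 25 targets, Zc3h12a, which encodes the RNase Regnase-1 that degrades cytokine mRNA, rose (1.02, adjusted p = 0.0430), and the median was 0.49 against 0.01 for all genes. The count of 1 target was the same without circRNA replicate 3 or circRNA replicate 4, was 5 without wild type replicate 3, and was 0 without any 1 of the other 10 libraries. It was 10 with the 2 groups alone and 12 with library weights. None of the 15 immediate-early genes was called by limma (7 higher and 2 lower at an unadjusted p under 0.05, beside 7.41% and 5.57% of all genes), although 5 were called higher with the 2 groups alone, 4 higher and 2 lower with library weights and 3 higher without wild type replicate 3, nor was any of the kinases, adaptors, brakes and other IkB genes (10 higher and 0 lower).

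The circRNA and PKR knockout groups were also compared with wild type. In the PKR knockout 7 of the 10 genes rose against wild type (17.5% of all genes did): all 5 inhibitors, Nfkb2 and Relb. Nfkbiz rose 4.58-fold in mean FPKM (log2 change 2.13, SE 0.158, adjusted p = 1.29e-06) and Tnfaip3 4.50-fold (2.11, SE 0.167, adjusted p = 1.97e-06). Nfkbia rose 2.73-fold (1.45, adjusted p = 5.40e-05), Nfkbid 1.98-fold (0.97, adjusted p = 0.00131) and Nfkbie 1.41-fold (0.45, adjusted p = 0.0102). The subunits Nfkb2 and Relb rose 1.71-fold (0.65, adjusted p = 0.000164) and 1.52-fold (0.48, adjusted p = 0.0114). The calls of Relb and Nfkbie were lost when libraries were rescaled to the same sum of FPKM (adjusted p = 0.0619 and 0.0929) and with the markers of other brain cells as a covariate (adjusted p = 0.0524 and 0.0895). Rescaling moved the median log2 change of all genes from -0.05 to -0.24 in this comparison, from 0.02 to -0.20 for the circRNA against wild type, and from -0.03 to -0.17 for 5xFAD with EGFP against wild type.

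With the circRNA, 4 of the 10 genes rose against wild type (17.8% of all genes): Nfkbiz 2.02-fold (log2 change 0.98, adjusted p = 0.000727), Tnfaip3 1.84-fold (0.86, adjusted p = 0.00253), Nfkb2 1.43-fold (0.43, adjusted p = 0.00417) and Relb 1.48-fold (0.45, adjusted p = 0.0207). Nfkbia was 1.30-fold as high (0.39, adjusted p = 0.121) and passed without wild type replicate 1 (0.57, adjusted p = 0.0313), while its log2 change was 0.21 without wild type replicate 3, 0.10 after rescaling and 0.04 after quantile normalization (adjusted p = 0.865). Nfkbie (-0.18, adjusted p = 0.307) was called lower after rescaling (-0.44, adjusted p = 0.00939) and without wild type replicate 3 (-0.32, adjusted p = 0.0415), and Rel (-0.09, adjusted p = 0.667) without wild type replicate 3 (-0.31, adjusted p = 0.0177). Over the alternatives the log2 change was -0.44 to -0.08 for Nfkbie and -0.35 to 0.05 for Rel. The Relb call was lost without wild type replicate 1 (adjusted p = 0.0747), without circRNA replicate 3 (adjusted p = 0.0528), with limma's library weights (adjusted p = 0.0905) and after rescaling (adjusted p = 0.169), and that of Nfkb2 after rescaling (adjusted p = 0.0765).

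**Figure D2:**
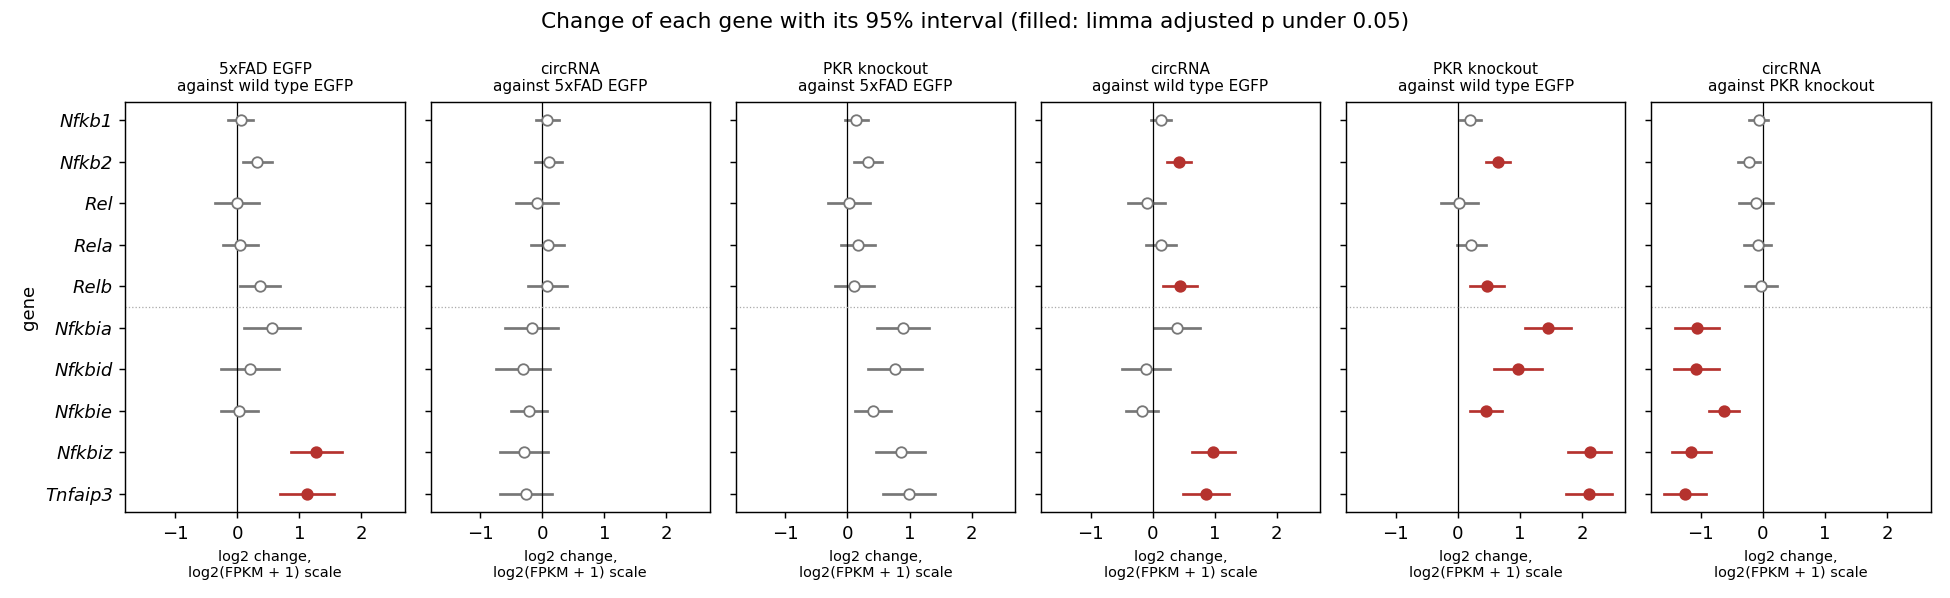
Log2 change of each gene in the 6 comparisons on the log2(FPKM + 1) scale (horizontal axis), with 95% confidence intervals from limma as bars. Filled points passed an adjusted p of 0.05. In the comparison of circRNA with PKR knockout the 5 inhibitors are filled and lie below 0, and the 5 subunits are open.

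The same pathway lists were read against wild type. In the knockout 21 of 25 targets rose and 2 fell (median 1.68 against -0.05 for all genes), and with the circRNA 16 rose and 1 fell (median 1.09 against 0.02). The largest in the knockout were Csf1 (3.85), Ccl3 (2.81), Ccl4 (2.56) and Ccrl2 (2.31), an atypical chemokine receptor, and with the circRNA Csf1 (3.38), Ccl3 (2.23), Plaur (2.01) and Ccl4 (1.89). The 2 targets that fell in the knockout were Vcam1 (-0.78) and Sod2 (-0.29), a mitochondrial superoxide dismutase, and 1 of them remained called without wild type replicate 3; with the circRNA it was Vcam1 (-0.63), whose call was lost without wild type replicate 1. These names were chosen after their values were seen. Immediate-early genes rose in 10 of 15 cases in the knockout, led by Atf3 (2.15), Ier2 (1.90), Zfp36 (1.82) and Dusp1 (1.69). The heat shock genes Hspa1a (-1.25) and Hspa1b (-1.32), near-identical copies whose reads may be shared and which were named after their values were seen, fell there, and neither was called without wild type replicate 1 or knockout replicate 2 or 4. With the circRNA 2 immediate-early genes rose, Atf3 (1.16) and Ier2 (0.56), and Nr4a1 fell (-0.72). That count of 2 was 1 in each fit without 1 library except those without wild type replicate 1 (4), circRNA replicate 4 and knockout replicate 3 (2 each), and the count of genes that fell was 2 without wild type replicate 2.

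The remaining lists hold the other IkB genes and the upstream kinases, adaptors and brakes, beside 17.5% of all genes called higher and 19.4% called lower in the knockout, and 17.8% higher and 8.05% lower with the circRNA. The other IkB genes Bcl3 (0.81) and Nfkbib (0.73) rose in the knockout against wild type, and Nfkbib rose with the circRNA (0.34). Among 10 kinases tested, Map3k8 (0.65), which encodes the kinase TPL2, and Ikbkb (0.20), which encodes IKKbeta, rose in the knockout, while Tab2 (-0.33) and Chuk (-0.25), which encodes IKKalpha, fell. Among 17 adaptors, 4 rose in the knockout: Irak2 (0.60), Traf3 (0.35), Bcl10 (0.33) and Rnf31 (0.24). With the circRNA, Traf3 rose (0.24) and Traf5 fell (-0.28). Among 10 ubiquitin-editing brakes, Tnip2 (0.73), Otulin (0.42), Tnip1 (0.37) and Irak3 (0.34) rose in the knockout and Itch fell (-0.22, named after its value was seen). With the circRNA 4 brakes rose, Tnip2 (0.49), Irak3 (0.34), Tnip1 (0.22) and Cyld (0.21). Border macrophage markers fell in 6 of 6 cases in both of these comparisons as well, summing to 15.5 to 27.0 FPKM with the circRNA and 15.6 to 21.4 in the knockout, beside 41.9 to 66.3 in wild type. Mural markers fell in 4 of 4 cases in the knockout and 3 of 4 with the circRNA, summing to 22.3 to 40.6 and 24.5 to 45.0 FPKM beside 49.2 to 108 in wild type. Endothelial markers fell in 4 of 6 and 2 of 6 cases, summing to 33.8 to 46.3 and 31.1 to 65.0 FPKM beside 49.7 to 116. Of the 6 astrocyte markers, Gja1 (-1.36) and Aqp4 (-0.93) fell in the knockout, and Gfap rose in the knockout (2.25) and with the circRNA (1.84); the list summed to 132 to 204 FPKM in the knockout, 119 to 214 with the circRNA and 78.3 to 258 in wild type. No marker of these 4 lists was at 0 in all libraries of a group, and these names were chosen after their values were seen. With the covariate of other brain cell markers, 5 of the 7 calls in the knockout held (all but Relb and Nfkbie), as did the 4 with the circRNA; the part of the border macrophage markers was not tested.

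The circRNA and the PKR knockout were compared directly, so that the 2 EGFP libraries enter the estimate of spread and not the difference. All 5 inhibitors were lower with the circRNA and none of the 5 subunits was called, where 1.91% of all genes were called lower. Tnfaip3 was 2.44-fold higher in the knockout (log2 change of circRNA minus knockout -1.25, SE 0.155, adjusted p = 0.00284), Nfkbiz 2.27-fold (-1.15, SE 0.147, adjusted p = 0.00284), Nfkbid 2.22-fold (-1.07, SE 0.165, adjusted p = 0.00654), Nfkbia 2.11-fold (-1.06, SE 0.160, adjusted p = 0.00603) and Nfkbie 1.63-fold (-0.63, SE 0.108, adjusted p = 0.00991). In each, all 4 circRNA libraries were below all 4 knockout libraries, as in 4.44% of all genes. These 5 calls held in each of the 22 alternatives, the highest adjusted p being 0.0413 for Nfkbie without knockout replicate 2. For the subunits the 95% confidence intervals of the log2 difference were -0.22 to 0.09 for Nfkb1, -0.31 to 0.14 for Rela, -0.39 to 0.16 for Rel, -0.28 to 0.22 for Relb and -0.41 to -0.05 for Nfkb2 (adjusted p = 0.111). Nfkb2 was called lower with the circRNA after rescaling (adjusted p = 0.0495), after median-ratio scaling (adjusted p = 0.0283) and with library weights (adjusted p = 0.00536). Vector and library preparation cannot be told apart from the knockout in this comparison either.

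Of the 25 targets, 11 fell in the circRNA against the knockout and 1 rose, with a median of -0.47 against 0.08 for all genes. Gadd45b, a stress-induced growth arrest gene, was at 4.49 ± 0.669 FPKM with the circRNA (SD, n = 4) and 12.4 ± 1.98 in the knockout (SD, n = 4), a log2 change of -1.28 (adjusted p = 0.00147). Zc3h12a (-1.14), Ier3 (-1.13) and Ccrl2 (-1.07) followed. The count of 11 was 7 without circRNA replicate 1, knockout replicate 1 or knockout replicate 4, 6 without circRNA replicate 4, 5 without knockout replicate 2, 17 without wild type replicate 3 and 20 with library weights. Sod2 rose (0.33, named after its value was seen), a call lost in 11 of the 22 alternatives. The 2 other IkB genes fell, Bcl3 by 0.58 and Nfkbib by 0.39 on the log2 scale, as did Map3k8 (-0.47) and Irak2 (-0.39), an adaptor of interleukin and Toll-like receptors. The remaining 9 kinases, 16 adaptors and 10 brakes tested were not called. Of the 15 immediate-early genes 11 fell and none rose, with a median of -0.98, led by Fosb (-1.49), Fos (-1.40), Zfp36 (-1.40) and Ier2 (-1.34), and the count was 7 without knockout replicate 1. Hspa1a (0.98) and Hspa1b (0.99), named after their values were seen, had values above those in the knockout without passing. Over the alternatives up to 2 genes of this list were called higher. The summed level of these genes was 869 to 1284 FPKM with the circRNA and 1661 to 2088 in the knockout, and none was at 0; their part in the inhibitor difference was not tested. No gene of the microglia, neuron, astrocyte, oligodendrocyte, endothelial, mural or border macrophage marker lists was called between these 2 groups, although 4 of the 6 oligodendrocyte markers were higher with the circRNA at an unadjusted p under 0.05 in limma, beside 19.6% of all genes. Oligodendrocyte markers summed to 306 to 786 FPKM with the circRNA and 225 to 375 in the knockout, and the inhibitor calls held with the covariate of other brain cell markers. The target list holds Bcl2a1a, Bcl2a1b and Bcl2a1d, near-identical copies whose reads the counting may have shared, so their single values are uncertain; they are named after their values were seen, and all 3 were among the targets that rose against wild type in each of the 3 5xFAD groups.

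**Figure D3:**
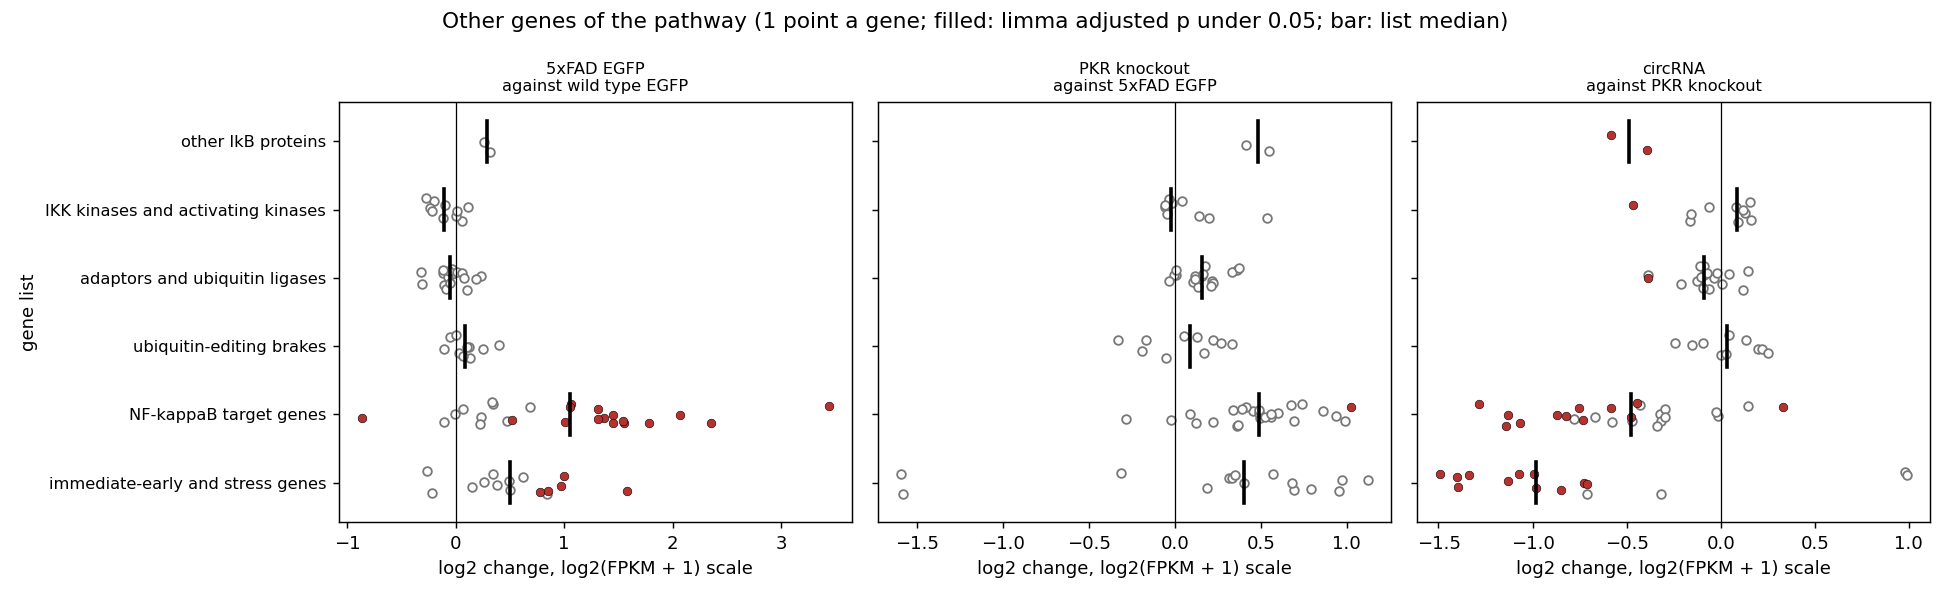
Log2 change on the log2(FPKM + 1) scale (horizontal axes, of differing range) of each tested gene in 6 pathway lists, for 5xFAD with EGFP against wild type, the PKR knockout against 5xFAD with EGFP and the circRNA against the PKR knockout. Points are genes, filled where they passed an adjusted p of 0.05, and black bars are list medians; the NF-kappaB target list has medians of 1.05, 0.49 and -0.47 in the 3 panels and the immediate-early list 0.50, 0.40 and -0.98.

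Ratios within a library do not depend on its scaling. The ratio of Nfkbia to Rela, the inhibitor to its main client subunit, was 3.00, 2.38 and 2.40 in wild type, 3.68 and 3.68 in 5xFAD with EGFP, 3.45, 3.20, 2.84 and 2.86 with the circRNA, and 6.63, 6.25, 5.23 and 6.33 in the knockout. All knockout libraries were above all others, and the circRNA libraries lay below both EGFP libraries and overlapped the wild type. The ratio of Tnfaip3 to Rela was 0.634, 0.603 and 0.486 in wild type, 1.20 and 1.31 in 5xFAD with EGFP, 1.15, 1.03, 0.808 and 0.943 with the circRNA, and 2.28, 2.19, 2.01 and 2.52 in the knockout, and the 4 groups did not overlap. For Nfkbiz to Nfkb1 the circRNA and EGFP groups of 5xFAD did overlap. There circRNA replicate 1 (2.99) was above 5xFAD EGFP replicate 1 (2.96). Over the whole set, the mean of the 5 inhibitors exceeded the mean of the 5 subunits by 0.74 to 1.12 on the log2(FPKM + 1) scale in wild type, by 1.40 and 1.45 in 5xFAD with EGFP, by 0.97 to 1.29 with the circRNA and by 1.87 to 2.16 in the knockout. These ratios restate the levels given above and were not tested.

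**Figure D4:**
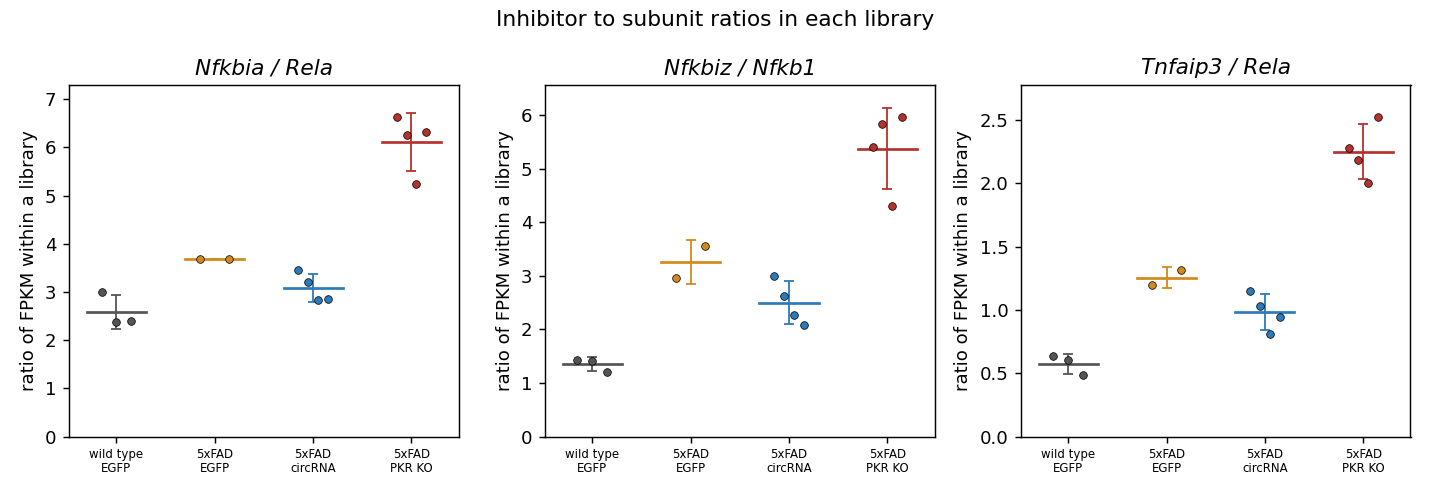
Ratio of FPKM within each library (vertical axis, linear and starting at 0) of Nfkbia to Rela, Nfkbiz to Nfkb1 and Tnfaip3 to Rela, by group, with the group mean as a line and the SD as a bar. The PKR knockout libraries lie above all others in each panel, at 5.23 to 6.63 for Nfkbia to Rela. In the panel of Nfkbiz to Nfkb1 the circRNA and 5xFAD EGFP libraries overlap.

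The genes whose levels most resembled each called gene were found by Pearson's r of log2(FPKM + 1) over the 13 libraries, which share the same 4 groups, so the values describe these libraries and carry no test. Nfkbia was closest to Ier2 (0.991), Ier3 (0.986) and Zfp36 (0.979), which are immediate-early or rapidly induced genes. Nfkbiz was closest to Osm (0.992), the gene of the cytokine oncostatin M, Ccrl2 (0.985) and Gadd45b (0.985). Gadd45b (0.986) and Osm (0.984) were among the genes closest to Tnfaip3. Osm itself was at 3.90 ± 1.29 FPKM in wild type (SD, n = 3), 11.3 ± 1.11 in 5xFAD with EGFP (SD, n = 2), 9.80 ± 1.37 with the circRNA (SD, n = 4) and 23.3 ± 4.11 in the knockout (SD, n = 4). Nfkbid was closest to Rnf19b (0.965), Acin1 (0.963) and Socs3 (0.962), and Nfkbie to Btbd19 (0.953), Socs3 (0.938) and Sbno2 (0.937), Socs3 being a feedback inhibitor of cytokine signalling. The subunit genes had other neighbours: Nfkb2 was closest to Pofut2 (0.967), P2rx4 (0.963) and Tcof1 (0.961), and Relb to Slc25a10 (0.938), Gpr84 (0.934) and Rasa4 (0.926).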

How the data were processed

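Microglial RNA from 13 libraries was analysed. Per the labels' protocols, ribosomal RNA was depleted and stranded total RNA libraries were sequenced. Bowtie2 2.3.5, HISAT2 2.1.0, featureCounts 1.5.1 and build mm10 are named in the submitters' processing notes; the annotation and the strand setting are not given in the sources used here. The authors deposited FPKM values with a column per library. Since FPKM depends on the library total, a change in abundant genes moves the others. Low values stepped by single fragments, which gave depths of 45.1 to 69.9 M (mega) fragments (91.2% to 93.5% of low values were whole within 0.02 of a fragment, with GENCODE M21 lengths for 98.3% of genes).

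The test was limma (version 3.58.1, under R version 4.3.3) applied to log2(FPKM + 1) of the 10817 genes averaging 1 FPKM or more, in 1 model with a mean for each of 4 groups (9 residual degrees of freedom) and an intensity trend. The Benjamini-Hochberg adjustment was made separately in 6 comparisons, with a threshold of 0.05. Tests are two-sided. On simulated data the pipeline was checked for recovery of known changes. Groups follow the titles. Alternatives were a pseudocount of 0.1, no filter, 3 scalings, the 2 groups alone, library weights, a replicate block, a covariate of other brain cell markers (neuron, astrocyte, oligodendrocyte, endothelial and mural) and leaving out each library. The covariate was a single mean of log2(FPKM + 1) per library over all these markers. Lists that move in opposite directions offset one another in it, and no list was adjusted for on its own. Without 1 of the 2 EGFP libraries of 5xFAD, the remaining one is assumed to vary like the other groups. Every one of the 10 genes is named; from each pathway list, genes past the threshold are named, at most the 4 with the largest change in a comparison. The genes and lists were chosen with earlier results of these data known, and the list counts under the alternatives were added after seeing the data. One gene that the rule for the most similar genes selected is not reported here.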

Additional observations from a re-analysis of the deposited data

Results flagged for a closer look

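Among the 20 sets of 4 libraries checked (10 genes in the circRNA and PKR knockout groups), 1 held a library far from the others. Nfkbia in 5xFAD circRNA replicate 4 was at 60.28 FPKM, against 77.8, 80.1 and 81.0 in the other 3 libraries of that group. Chance flags about 1 in 20 such sets.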

How the results depend on the processing

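The 43 printed log2 changes of the 10 genes were recomputed under 22 alternatives, giving 946 values, of which 901 kept their direction and side of the threshold, 10 lost the call, 29 gained one and 6 changed sign, all in uncalled subunits. Changes not printed are outside this tally and changed sign as well. For 5xFAD with EGFP against wild type, Nfkbie did so in 6 alternatives and Nfkbid in 1. For the knockout against wild type, Nfkb1 gained a call in 4 and changed sign in 1, and Rela gained a call in 1 and changed sign in 1. For the circRNA against wild type, Rel ranged from -0.311 to 0.0542 when 1 library was left out. In the circRNA against the knockout, Rel was 0.0096 and Relb 0.0010 with the marker covariate, and Relb ranged from -0.114 to 0.0702 when 1 library was left out. For 5xFAD with EGFP against wild type, the count of 2 called genes was 1 with the 2 groups alone and 2 to 3 when 1 library was left out. For the knockout against 5xFAD with EGFP, the count of 0 was 1 with median-ratio scaling, 4 with the 2 groups alone, 6 with library weights, 2 with the replicate block and 1 with the marker covariate, and 0 to 4 when 1 library was left out; the cause was not tested. The counts ranged from 3 to 6 around 4 for the circRNA against wild type, from 5 to 9 around 7 for the knockout against wild type, and from 5 to 6 around 5 for the circRNA against the knockout. The replicate block used the shared replicate numbers, which the labels tie to no shared animal or batch: same-numbered libraries correlated at 0.27 and 0.38 in the knockout and 5xFAD with EGFP (2 pairs, mean 0.33 against -0.11 for other numbers, with 2 knockout libraries correlating best with their own number), and at 0.04 to 0.55 in the circRNA and the knockout (4 pairs, where 1 of 4 circRNA libraries correlated best with its own number). The block left the other 5 counts of the 10 genes as they were, while the NF-kappaB targets called in the knockout against 5xFAD with EGFP were 3 in place of 1, and the immediate-early genes called higher were 2 in place of 0 there, 3 in place of 5 for 5xFAD with EGFP against wild type and 4 in place of 2 for the circRNA against wild type.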
